A study of Drosophila melanogaster with 12 samples.

Results

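S9.6 enrichment called after RNH treatment was analyzed by DRIP-seq in S2 cells, which were either dH1-depleted or left untreated. The peaks of the 4 RNH-treated libraries were taken, all of them and no others, which makes 3185 of the 25902 peaks in the 8 lists of the study. Untreated cells gave 1001 peaks in replicate 1 and 903 in replicate 2, and dH1-depleted cells gave 442 in replicate 1 and 839 in replicate 2. The comparison asks where S9.6 enrichment is called after RNH, and whether its location, width and rank differ upon dH1 depletion.

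S2 is a *Drosophila* cell line of embryonic origin. dH1-depleted cells were grown for 8 days and received 100 μg of dsRNA against dH1 on days 1, 4 and 7. The control untreated cells received no dsRNA, so that depletion of dH1 and exposure to dsRNA cannot be told apart in these libraries. In both conditions genomic DNA was treated with RNase A, sheared by sonication to 500 to 1000 bp, digested by RNH (6 U) and precipitated using 4 μg of S9.6. Each condition had 2 independent biological replicates, and each S9.6 library was called against the input of its replicate. The lists hold peaks only, so the extent of dH1 depletion cannot be checked in them.

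R-loops are structures in which a nascent RNA pairs with its template DNA and displaces the other strand. S9.6 recognizes the DNA:RNA hybrid and RNH degrades the RNA strand within it. A peak of an RNH-treated list marks enrichment over input in the digested sample. It is named RNH-resistant here whether or not a peak was called there without RNH. Between 42.0% and 83.7% of the peaks of a list had an RNH-untreated peak of the same condition and replicate. dH1 is the somatic linker histone of *Drosophila*, which binds nucleosomes at the entry and exit of DNA and is required to keep heterochromatin compact and its repeated elements silent. In the dm3 assembly the pericentromeric DNA is split into the Het sequences, which are placed next to an arm, and into U and Uextra, which collect scaffolds without a place. Much of U and Uextra consists of transposons and satellites. The Het sequences, U and Uextra are called heterochromatic below, and 2L, 2R, 3L, 3R, 4 and X are the chromosome arms.

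The 4 lists differed in ways that bear on every comparison. The depth of the libraries is unknown, since the lists give no read counts. The list of dH1-depleted replicate 1 held less than any other list, with 442 peaks. The list of dH1-depleted replicate 2 stood apart in location, with 375 of its 839 peaks on the arms. The RNH-untreated list of dH1-depleted replicate 1 stood apart too, with a median width of 228 bp, whereas that of dH1-depleted replicate 2 was 1233 bp. The part of library quality in the results was not tested, and values without a library are given where they matter.

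Uextra was the class with the most RNH-resistant peaks in every list. In untreated cells Uextra held 789 peaks in replicate 1 and 736 in replicate 2, and in dH1-depleted cells it held 319 and 406. As a share of the list this was 78.8% and 81.5% in untreated cells against 72.2% and 48.4% in dH1-depleted cells. Both dH1-depleted lists were thus below both untreated lists, in number and in share. U held 90 and 74 peaks in untreated cells and 45 and 39 in dH1-depleted cells. The Het sequences held few peaks in any list, between 15 and 22.

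**Figure D1:**
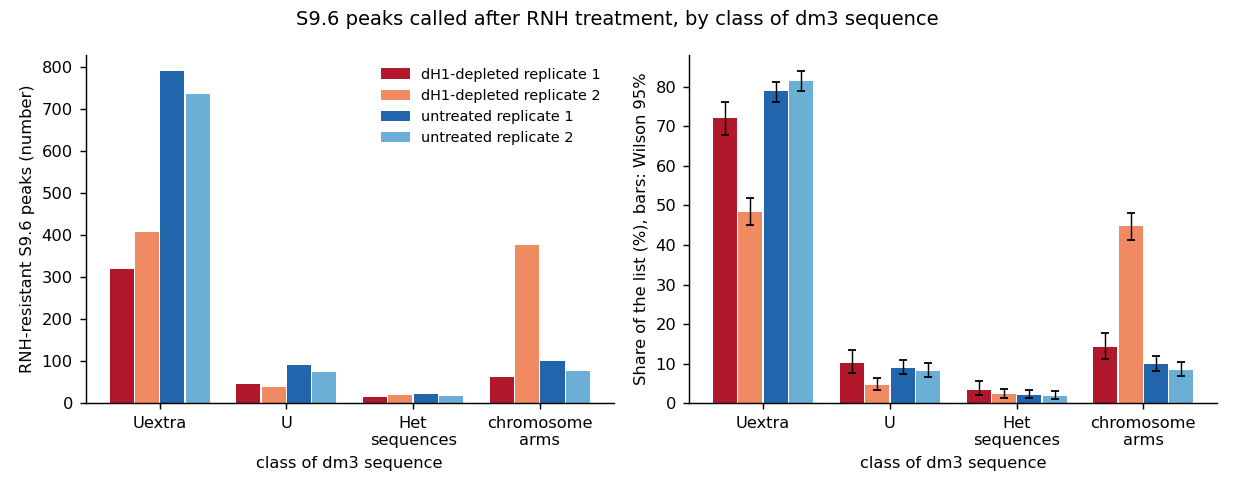
Number of peaks called after RNH treatment (left) and share of the list in percent with Wilson 95% intervals (right), by class of dm3 sequence, with 1 bar for each of the 4 lists. Uextra holds 319 and 406 peaks in dH1-depleted cells against 789 and 736 in untreated cells, while the arms hold 375 peaks in dH1-depleted replicate 2 and 63 to 100 in the other lists.

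The share of peaks in heterochromatic sequences was 90.0% and 91.6% in untreated cells, and 85.7% and 55.3% in dH1-depleted cells. The means were 90.8% ± 1.11 (SD, n = 2) and 70.5% ± 21.5 (SD, n = 2). The groups did not overlap, and the difference of -1.86 in log2 odds compares with a replicate spread of 1.14 (2-sided exact permutation test, p = 0.33). As each condition has 2 libraries, 0.33 is the smallest p the test can give, so no difference can pass 0.05 here. Without dH1-depleted replicate 2 the difference was -0.72. The share on Uextra differed by -1.38 in log2 odds with a spread of 0.74, and by -0.64 without dH1-depleted replicate 2 (exact permutation test, p = 0.33 for all 4 libraries).

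The number of peaks was lower in both dH1-depleted lists than in both untreated lists, with means of 640.5 ± 281 and 952 ± 69.3 (SD, n = 2). The difference was -0.64 on the log2 scale with a replicate spread of 0.47 (2-sided exact permutation test, p = 0.33). Outside Uextra the lists held 123 and 433 peaks in dH1-depleted cells against 212 and 167 in untreated cells, a difference of 0.29 in the other direction, and the groups overlapped. The bases covered overlapped between conditions, with 686754 and 1602117 bp in dH1-depleted cells and 1449620 and 1179661 bp in untreated cells. Over the 8 tests between conditions the adjusted p was 0.67 or 1.

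On the chromosome arms the lists held 63 and 375 peaks in dH1-depleted cells and 100 and 76 in untreated cells. The groups overlapped, and the replicates of dH1-depleted cells lay on both sides of the untreated lists. The difference was 0.82 on the log2 scale with a spread of 1.30 (2-sided exact permutation test, p = 1), and -0.47 without dH1-depleted replicate 2. The arm peaks of dH1-depleted replicate 2 covered 66.5% of the bases of that list, against 35.4% in dH1-depleted replicate 1 and 23.6% and 19.7% in untreated cells. Among the arms, 2R held the most peaks of dH1-depleted replicate 2, with 136 of 375, followed by 3R with 75 and 3L with 72. In the other 3 lists 2L held the most arm peaks, with 19 in dH1-depleted replicate 1 and 29 and 20 in untreated cells. Chromosome 4, which is small and largely heterochromatic, held 2 peaks in each of those lists and 0 in dH1-depleted replicate 2.

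Within 2R, peaks lay mostly on the centromeric side of the arm in all 4 lists. The first 10 Mb of 2R held 7 of its 9 peaks in dH1-depleted replicate 1, 101 of 136 (74.3%, Wilson 95% interval 66.3 to 80.9%) in dH1-depleted replicate 2, 20 of 25 in untreated replicate 1 and 11 of 16 in untreated replicate 2. The list of dH1-depleted replicate 2 did not stand apart from the others in this share. In the 4 RNH-untreated lists the first 10 Mb held 58.8 to 61.6% of the 2R peaks. The last 1 Mb of the 5 large arms on the proximal side held 8 and 9 peaks in dH1-depleted cells and 11 and 8 in untreated cells, close in number although the lists had 61 to 375 peaks on these arms.

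Peaks on the arms were wider than heterochromatic peaks in all 4 lists. The median width of heterochromatic peaks was 1009 and 1018.5 bp in dH1-depleted cells and 1045 and 1032 bp in untreated cells. On the arms it was 2998 and 2297 bp in dH1-depleted cells and 2763.5 and 2250.5 bp in untreated cells. The conditions therefore lay close together in heterochromatic sequences and overlapped on the arms. The share of peaks wider than 3000 bp was 1.57 to 2.44% in heterochromatic sequences over the 4 lists, and 30.9 to 49.2% on the arms. The Het sequences were the exception among heterochromatic sequences, with medians of 2190 and 2617 bp in dH1-depleted cells and 5005.5 and 4917 bp in untreated cells, on 15 to 22 peaks a list. Over all peaks of a list, the median width was 1054.5 and 1306 bp in dH1-depleted cells and 1082 and 1053 bp in untreated cells (2-sided exact permutation test, p = 0.67).

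**Figure D2:**
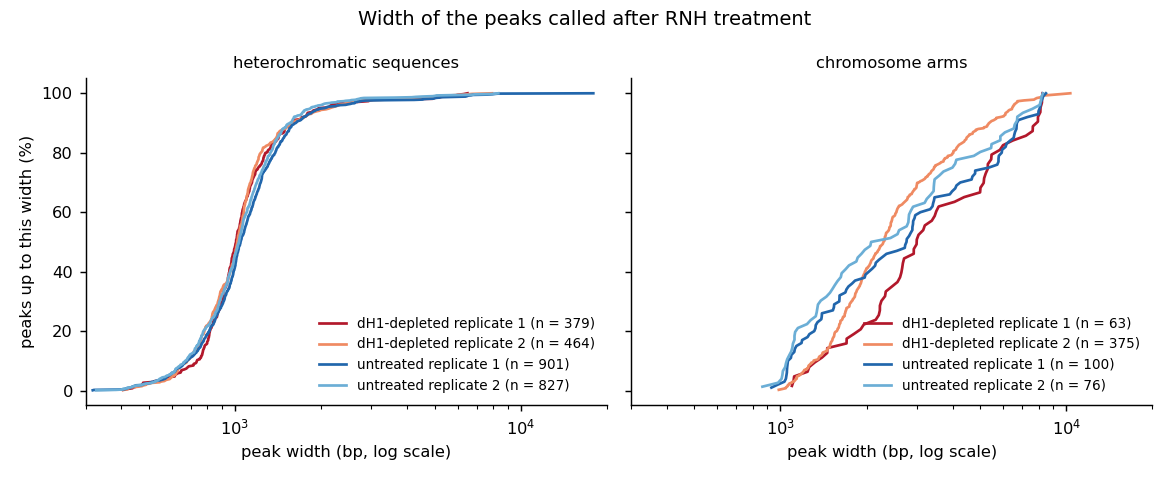
Cumulative share of peaks (percent) up to a given width (bp, log scale), for heterochromatic sequences (left) and chromosome arms (right), with 1 line for each RNH-treated list. The 4 lines run together in heterochromatic sequences, with medians of 1009 to 1045 bp, and spread on the arms, with medians of 2250.5 to 2998 bp.

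The widest peak of each list was examined. That of dH1-depleted replicate 1 spanned 8252 bp at 2R 6835275-6843526, while replicate 2 of the same cells had a peak of 10321 bp at 2L 1405828-1416148. Neither was met in any other RNH-treated list. The widest peak of untreated replicate 1 covered 17906 bp of U, from 5287994 to 5305899, and was not met in another list either. That of untreated replicate 2, 8330 bp of 2RHet from 2086008 to 2094337, was called with the same start and end in untreated replicate 1.

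Peaks of Uextra lay close to one another more often in untreated cells. The share of Uextra peaks with a neighbor of the same list within 5000 bp was 40.4% and 42.3% in untreated cells and 21.3% and 24.4% in dH1-depleted cells, in lists that also differ in the number of Uextra peaks. On the arms the shares were 12.7% for dH1-depleted replicate 1, 27.7% for dH1-depleted replicate 2, and 15.0% and 17.1% for the untreated lists.

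Next, the peaks were ranked by score within each list, from the lowest up. The percentile of a peak is its rank as a percentage of the length of the list, and tied peaks take their mean rank. The scores themselves are not normalized between lists. The median percentile of heterochromatic peaks was 48.9 and 60.9 in dH1-depleted cells and 52.5 and 52.2 in untreated cells. On the arms it was 61.1 and 40.9 in dH1-depleted cells and 27.8 and 22.9 in untreated cells. Arm peaks thus stood higher in both dH1-depleted lists than in both untreated lists, and in dH1-depleted replicate 1 they stood above the heterochromatic peaks of their own list. The median percentile of heterochromatic peaks minus that of arm peaks was -12.2 and 20.0 points in dH1-depleted cells. In untreated cells it was 24.7 and 29.2 points, a difference between conditions of -23.1 with a spread of 16.3 (2-sided exact permutation test, p = 0.33). The sign of this difference depended on the number of peaks taken. Among the 442 peaks of highest score in each list the heterochromatic minus arm values were -12.2 and 17.6 points in dH1-depleted cells and -36.0 and -26.5 points in untreated cells, on 63, 155, 22 and 19 arm peaks. Above percentile 90, arm peaks made up 22.2% of the peaks of dH1-depleted replicate 1, where they were 14.3% of the whole list, and 22.6% in dH1-depleted replicate 2, where they were 44.7%. In untreated cells they made up 12.9% and 9.89% above percentile 90, against 9.99% and 8.42% of the whole lists. The counts above percentile 90 were 10 of 45 and 19 of 84 in dH1-depleted cells and 13 of 101 and 9 of 91 in untreated cells. Arm peaks were thus less frequent at the top of the list in dH1-depleted replicate 2. In dH1-depleted replicate 1 and in both untreated lists they were more frequent there, on few peaks.

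A score of 3100 or above was reached by 4 peaks in each dH1-depleted list and by 6 in each untreated list. Most of these peaks had the same score of 3100, and 1 peak of dH1-depleted replicate 2, X 2689664-2692345, had a score of 3191. The lists do not say why the value of 3100 recurs. These peaks lay in 6 regions, which were X 2683585-2687687, X 2689660-2692699, X 5791981-5795439, 3R 10488376-10491836, 2RHet 3199031-3200989 and Uextra 5223573-5224933. All 6 had a peak in all 4 RNH-treated lists and in all 4 RNH-untreated lists. The lowest percentile among them was 97.7, for the 3R region in dH1-depleted replicate 1. Dm3 annotation was not used here, so no gene or repeat was assigned to these positions.

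Overlap between lists was then analyzed, as the share of peaks of a list that met a peak of another list by at least 1 bp. Untreated replicates overlapped the most, with 79.2% of the peaks of replicate 1 met in replicate 2 and 88.2% the other way. The dH1-depleted replicates overlapped the least, with 46.2% of replicate 1 met in replicate 2 and 24.2% the other way. Each dH1-depleted list was met more often by the untreated lists than by its own replicate. Of the peaks of dH1-depleted replicate 1, 67.0% and 65.2% were met in untreated replicates 1 and 2, and of those of dH1-depleted replicate 2, 49.3% and 47.3%. The mean of both directions was 83.7% within untreated cells, 35.2% within dH1-depleted cells and 45.2 to 48.6% for the 4 pairs between conditions. These pairs share libraries and are given without a test.

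**Figure D3:**
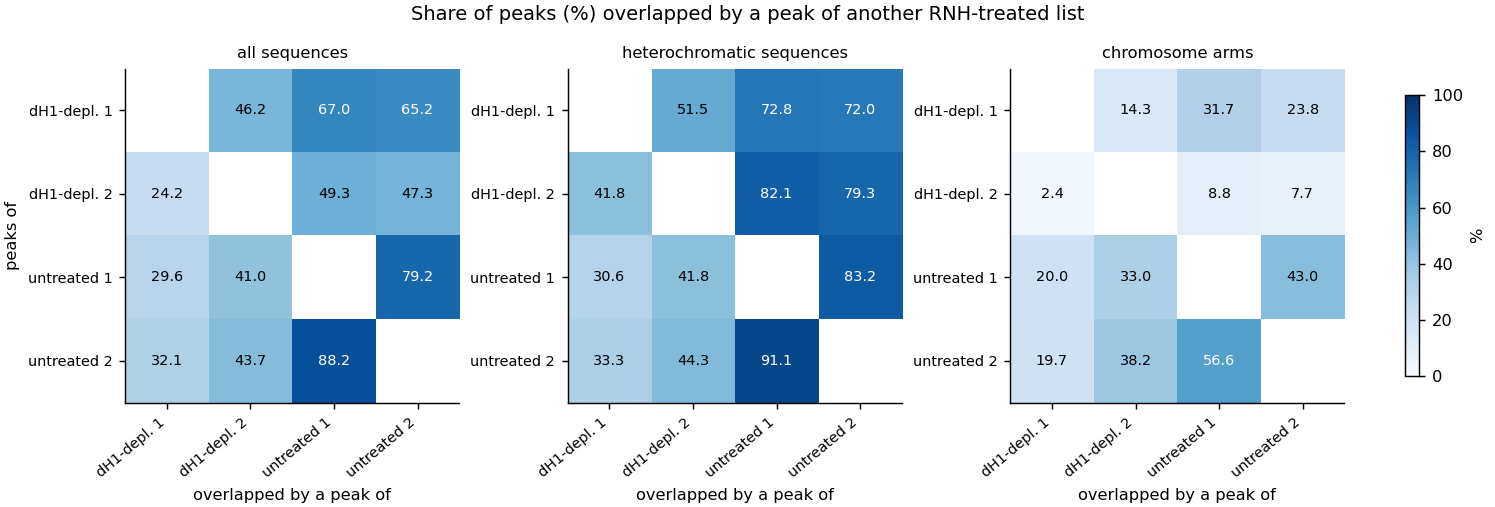
Share of the peaks of a list (rows, percent) that meet a peak of another RNH-treated list (columns) by at least 1 bp, for all sequences, heterochromatic sequences and chromosome arms. The darkest cells are those of the untreated replicates with each other (79.2% and 88.2% over all sequences), and peaks of dH1-depleted replicate 2 on the arms meet the other lists in 2.4 to 8.8% of cases.

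The order of the overlaps was the same with lists of equal length. When the 442 peaks of highest score were taken from each list, the overlap was 90.5% within untreated cells, 38.1% within dH1-depleted cells and 51.1 to 57.7% between conditions. It was also the same within heterochromatic sequences, with 87.1%, 46.6% and 51.7 to 62.0%, and on the arms, with 49.8%, 8.34% and 20.9 to 25.9%. In heterochromatic sequences 82.1% and 79.3% of the peaks of dH1-depleted replicate 2 were met in untreated replicates 1 and 2. On the arms the values for dH1-depleted replicate 2 were 8.80% and 7.73%.

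Merging the 4 lists gave 1642 regions, 1135 in heterochromatic sequences and 507 on the arms. A peak was called in all 4 lists in 194 regions (11.8% of all regions), of which 185 were heterochromatic. It was called in both untreated lists and in neither dH1-depleted list in 331 regions (20.2%), and in both dH1-depleted lists and in neither untreated list in 7 regions (0.426%). The counts for pairs made of 1 library of each condition are given beside these. They are no null for the count of both untreated lists alone. Regions of a single dH1-depleted list were often in both untreated lists and so fall outside the mixed pairs. These were 178 regions for dH1-depleted replicate 2 and 86 for dH1-depleted replicate 1. Both replicates 1 alone shared 14 regions (0.853%), both replicates 2 alone 18 (1.10%), dH1-depleted replicate 1 and untreated replicate 2 alone 6 (0.365%), and dH1-depleted replicate 2 and untreated replicate 1 alone 35 (2.13%). The count for dH1-depleted cells lay among these mixed pairs and the count for untreated cells lay above all of them.

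**Figure D4:**
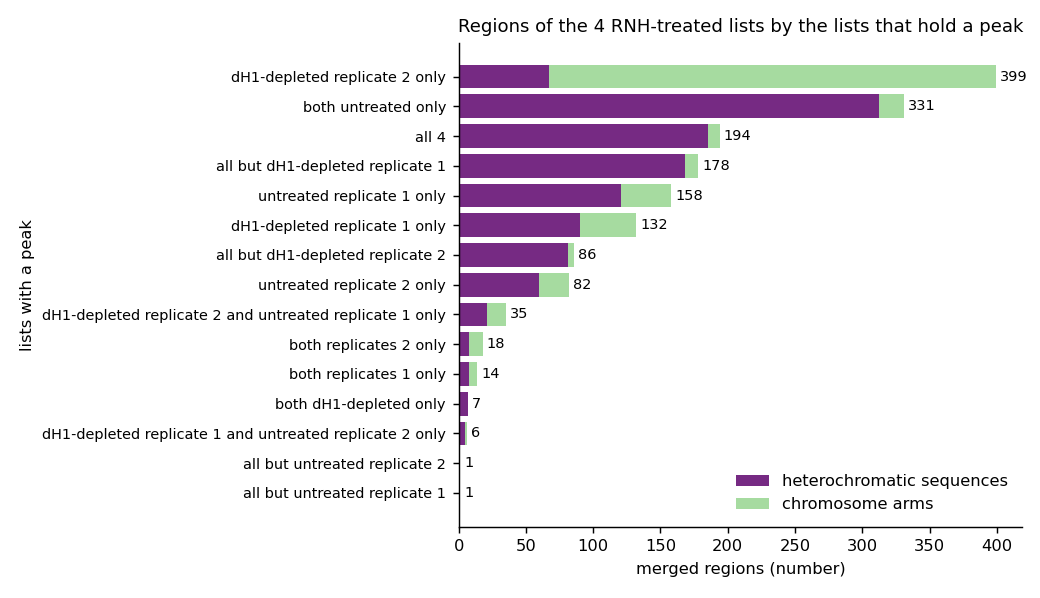
Number of merged regions by the set of RNH-treated lists that hold a peak, divided into heterochromatic sequences and chromosome arms. The largest sets are those of dH1-depleted replicate 2 alone (399, of which 332 on the arms), both untreated lists alone (331, of which 312 heterochromatic) and all 4 lists (194).

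Of the 331 regions of both untreated lists alone, 312 were heterochromatic (94.3%, Wilson 95% interval 91.2 to 96.3%). The share was 94.6% (746 of 789) over all regions of both untreated lists and 95.4% over the regions of all 4 lists, so that the regions without a peak in dH1-depleted cells lay in heterochromatic sequences about as often as the others. Over all 1642 regions, including the 332 arm regions of dH1-depleted replicate 2 alone, it was 69.1%. Uextra held 276, U 30 and the Het sequences 6. All 7 regions of both dH1-depleted lists alone were on Uextra, as were 174 of the 203 regions of both dH1-depleted lists (85.7%). With the 442 peaks of highest score from each list there were 853 regions, 74.9% of them heterochromatic. Of these 853, 95 were found in both untreated lists alone and 8 in both dH1-depleted lists alone. The mixed pairs were not counted at this length.

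The region of both untreated lists alone with the highest rank was 2RHet 2086008-2094337, at percentiles 99.3 and 99.2. Next came 2L 626098-628261, on an arm, at 98.1 and 97.6. Uextra 28886442-28887430, 3LHet 854156-859220 and Uextra 3797856-3799435 followed, with 87.2 to 91.6 over both lists. These 5 regions had a peak in all 4 RNH-untreated lists, those of dH1-depleted cells included. On 3R the region 11635453-11636589 stood at 61.2 and 56.1 and had an RNH-untreated peak in 1 list, and the region 4723854-4732336 stood at 32.8 and 79.5 with an RNH-untreated peak in 2 lists.

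The regions of both dH1-depleted lists alone were 7 against 331, so the highest ranks of the 2 sets cannot be compared. The lower of the 2 percentiles of a region had a median of 15.9 in the 7 regions and 30.0 in the 331. In the regions of the mixed pairs alone this median was 9.27 to 20.3. The highest of the 7 was Uextra 12536936-12537882, at percentiles 43.7 and 46.2 in replicates 1 and 2. In the next 4 the ranks of the replicates lay far apart. Uextra 23174982-23176613 stood at 64.7 and 27.7, Uextra 20460274-20461313 at 21.3 and 70.2, Uextra 24271494-24272599 at 47.1 and 15.9, and Uextra 1775925-1777676 at 66.5 and 3.40. Of these 5, the second and the fourth had a peak in all 4 RNH-untreated lists, the first in 1 list, and the third and the fifth in none.

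Seen from dH1-depleted cells, 203 regions had a peak in both lists, and 196 of them (96.6%, 93.1 to 98.3%) had a peak in at least 1 untreated list. Seen from untreated cells, 789 regions had a peak in both lists, of which 35.5% were met in dH1-depleted replicate 1, 47.1% in dH1-depleted replicate 2 and 42.0% in neither. The sets of 203 and 789 differ in size, and the mean overlap of replicates was 35.2% in dH1-depleted cells and 83.7% in untreated cells. These shares therefore measure no asymmetry between conditions. Regions called in either replicate gave similar shares over all sequences. There 49.8% of the 1071 dH1-depleted regions were also untreated regions, and 48.3% of the 1104 untreated regions were also dH1-depleted regions. In heterochromatic sequences the shares were 74.5% of 642 and 49.2% of 971. Both rest on the same 478 shared regions, so they differ only by the size of the 2 sets. On the arms the shares were 12.8% of 429 and 41.4% of 133.

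Presence in dH1-depleted cells followed rank in untreated cells. The 789 regions of both untreated lists were divided into quartiles by their mean percentile in these lists. From the lowest to the highest quartile, dH1-depleted replicate 1 had a peak in 7.58%, 25.9%, 46.2% and 62.4% of regions, and dH1-depleted replicate 2 in 13.1%, 31.5%, 61.4% and 82.7%. The share of regions met in neither list went from 80.3% in the lowest quartile to 9.64% in the highest. Both replicates show the same order, and dH1-depleted replicate 2 is above replicate 1 in each quartile.

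**Figure D5:**
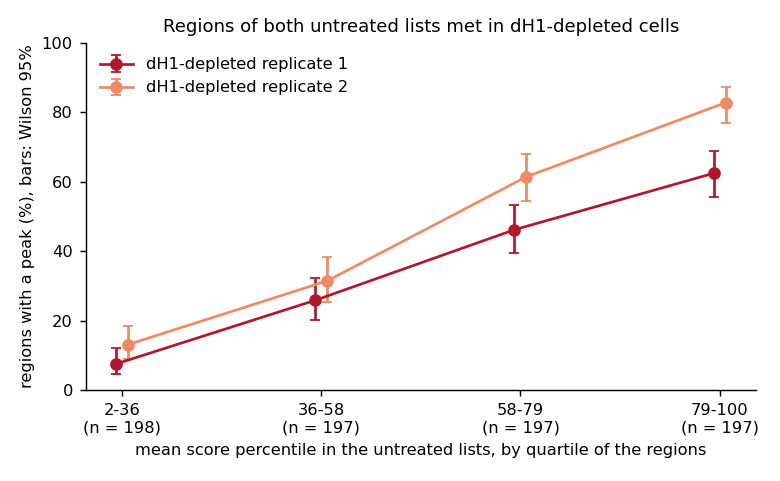
Share of the regions of both untreated lists (percent, bars are Wilson 95% intervals) with a peak in each dH1-depleted list, by quartile of the mean score percentile in the untreated lists, with 197 or 198 regions a quartile. Both lines go up in every step, from 7.58% to 62.4% in dH1-depleted replicate 1 and from 13.1% to 82.7% in dH1-depleted replicate 2.

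Ranks of shared regions were compared as a description, since regions of a list share a library and copies of a repeat share reads. Spearman's rho was 0.91 between the untreated replicates (789 regions) and 0.44 between the dH1-depleted replicates (203 regions). Between conditions it was 0.70 and 0.66 for dH1-depleted replicate 2 (408 and 391 regions) and 0.43 and 0.39 for dH1-depleted replicate 1 (295 and 287 regions) with untreated replicates 1 and 2.

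In the 194 regions of all 4 lists the median percentile was 64.7 and 78.5 in dH1-depleted cells and 82.9 and 79.5 in untreated cells. These regions made up 43.9% and 23.1% of the dH1-depleted lists and 19.4% and 21.5% of the untreated lists, so a percentile stands for a different rank in each. The mean over replicates was lower in dH1-depleted cells in 150 regions and higher in 44 with full lists. With 442 peaks a list, 153 regions were common to all 4, and the mean was lower in dH1-depleted cells in 73 and higher in 78. The direction seen with full lists was therefore not seen at equal list length. In 188 of the 194 regions each list had a single peak, and the position of the peak differed little between lists. The median range over the 4 lists was 107.5 bp for the start and 112 bp for the end, for peaks of 1004.5 to 1104.5 bp in the median. With full lists the peak was narrower in dH1-depleted cells in 143 regions and wider in 45, with a median difference of -0.08 on the log2 scale. Width in these regions was not compared at equal list length, and regions are not replicates of a condition.

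Of the 9 arm regions of all 4 lists, 7 had an RNH-untreated peak in all 4 lists. They were the 3 regions of X and the 3R region described above, together with 2R 2234094-2239593, 3L 24456351-24464510 and 3R 26899742-26907982. The 3L region 23729724-23731452 stood at percentiles 97.1 and 98.7 in dH1-depleted cells and 99.1 and 98.3 in untreated cells, and had an RNH-untreated peak in 1 list. The 2R region 9372905-9374224 stood at 83.7 and 60.8 in dH1-depleted cells and 55.3 and 44.0 in untreated cells, and had an RNH-untreated peak in no list.

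Regions found in a single list made up 85.4% of the arm regions (433 of 507) and 29.8% of the heterochromatic regions (338 of 1135). Of the single-list arm regions, 332 belonged to dH1-depleted replicate 2, where they were 88.5% of its arm regions. The shares were 66.7% in dH1-depleted replicate 1 (42 of 63), 37.0% in untreated replicate 1 (37 of 100) and 28.9% in untreated replicate 2 (22 of 76). The median width of these peaks was 2187.5 bp in dH1-depleted replicate 2, 2926 bp in dH1-depleted replicate 1, and 2038 and 1499 bp in untreated cells. Their median percentile was 37.3 in dH1-depleted replicate 2, 49.0 in dH1-depleted replicate 1, and 15.2 and 12.1 in untreated cells. Of the 332 regions 124 lay on 2R, 68 on 3R, 63 on 3L, 49 on 2L and 28 on X.

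Finally, the RNH-treated peaks were compared with the RNH-untreated peaks of the same condition and replicate. The share with such a peak was 83.7% and 42.0% in dH1-depleted cells and 62.3% and 63.2% in untreated cells. The groups overlapped and the difference was 0.19 in log2 odds with a spread of 1.41 (2-sided exact permutation test, p = 1). It was -1.22 without dH1-depleted replicate 1 and 1.60 without dH1-depleted replicate 2. The RNH-untreated lists of these 2 replicates held 9368 and 5526 peaks, against 4016 and 3807 in untreated cells, and the part of list length in the shares was not tested.

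Peaks without an RNH-untreated peak in any of the 4 lists were 9.05% of dH1-depleted replicate 1, 34.4% of dH1-depleted replicate 2, and 8.09% and 6.76% of untreated replicates 1 and 2. On the arms they were 227 of the 375 peaks of dH1-depleted replicate 2 (60.5%, Wilson 95% interval 55.5 to 65.3%), and 17.5%, 15.0% and 7.89% in dH1-depleted replicate 1 and untreated replicates 1 and 2. In heterochromatic sequences the values were closer, with 13.4% in dH1-depleted replicate 2 against 7.65%, 7.33% and 6.65%. An RNH-untreated peak of any list was met in 33.1% of the 332 arm regions of dH1-depleted replicate 2 alone. For the single-list arm regions of dH1-depleted replicate 1 it was 78.6% (33 of 42). For those of untreated replicates 1 and 2 it was 75.7% (28 of 37) and 86.4% (19 of 22). Over all 1642 regions the share was 76.1%. It was 97.9% in the 194 regions of all 4 lists and 95.2% in the 331 regions of both untreated lists alone, which were mostly heterochromatic.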

How the data were processed

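Each S9.6 library gave a list of peaks. The authors aligned reads to dm3 with Bowtie 0.12.5, keeping the alignment sites of repeated sequences, and called peaks with MACS 1.4 against the input of the replicate. For each peak the authors deposited a position and a score that grows with depth, so the score served only to rank or filter within a list. Peaks on copies of a repeat share reads. Wilson 95% intervals cover counting error only.

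Conditions were compared with exact permutation tests (2-sided) on log2 values, log2 odds of shares or percentile differences, adjusted by Benjamini-Hochberg over 8 tests. Regions were peaks merged over the 4 RNH-treated lists (1 bp or more). Regions named were the 5 with the highest lowest percentile in all 4 lists, in both dH1-depleted lists alone and in both untreated lists alone, the 3 highest on the arms of each, and the highest and widest peaks of each list. The 9 arm regions of all 4 lists were named after their values were seen. Lists, tests and regions were chosen with earlier results of these data known. Alternatives were a score of 100 or more, Uextra left out, 442 peaks a list, joining peaks within 5000 bp, an overlap of 50% of the shorter interval, base pairs instead of peaks, RNH-untreated peaks widened by 500 bp, chromosome 4 taken as heterochromatic, a replicate block and leaving out each library.

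Calculations used Python 3.11.15, NumPy 2.4.6, SciPy 1.17.1, pandas 2.3.3 and matplotlib 3.10.9, and were tested on simulated data. The read-based steps of the authors (DiffBind and edgeR) were not repeated, and genes, repeats and sequences of dm3 were not analysed here.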

Additional observations from a re-analysis of the deposited data

How the results depend on the processing

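With 2 libraries a condition no test could pass 0.05, and depth is unknown, so lists that differ in length may differ in depth. A score of 100 keeps unequal parts of the lists, whose median scores were 80.2 and 83.4 in dH1-depleted cells and 152 and 169 in untreated cells. Leaving out Uextra turned the difference in peak number to 0.29 and that in bases covered to 0.43 (log2), and equal numbers of peaks turned the latter to 0.37. The percentile difference turned to 12.9 with scores of 100 or more and to 33.9 with equal numbers. The difference in the share with an RNH-untreated peak turned to -0.25 with equal numbers. When each library was left out in turn, the differences ranged from -1.11 to -0.18 for peak number, -0.93 to 0.29 for bases, -0.018 to 0.29 for width, -2.99 to -0.72 for the heterochromatic share, -2.11 to -0.64 for the Uextra share, -0.47 to 2.10 for arm peaks, -39.2 to -6.96 for the percentile difference and -1.22 to 1.60 for the share with an RNH-untreated peak. Bases turned without dH1-depleted replicate 1 (0.29), as did the share with an RNH-untreated peak (-1.22), and width (-0.018) and arm peaks (-0.47) turned without dH1-depleted replicate 2. Of the regions of all 4 lists, 150 had a lower mean percentile in dH1-depleted cells, against 73 with equal numbers, a comparison chosen after seeing the data. The causes were not tested.

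Overlap within dH1-depleted cells was 15.1% without Uextra and 38.1% with equal numbers. Within untreated cells it was 88.5% with scores of 100 or more, 68.0% without Uextra and 90.5% with equal numbers, and between conditions the means were 50.6%, 30.2% and 54.4%. Regions of both dH1-depleted lists alone numbered 0 of 827 with scores of 100 or more and 0 of 669 without Uextra. This leaves no heterochromatic share to give. Those of both untreated lists alone numbered 55 of 669 without Uextra and 95 of 853 with equal numbers. Their heterochromatic share was 98.4% with scores of 100 or more, 65.5% without Uextra and 97.9% with equal numbers. Over all regions of the same setting the share was 83.8%, 24.2% and 74.9%.

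Libraries with the same replicate number did not deviate together (r = 0.03 over 1642 regions and -0.11 over 14 sequences). With 2 libraries a condition these values cannot decide whether same-numbered libraries share a culture, day or run. The labels do not say so either, and the main tests were run without pairing. With the replicate number as a block the differences are the same by construction, at -0.64 for peak number, -1.86 for the heterochromatic share and 0.82 for arm peaks, and the smallest p is 0.5. The crossed pairing, chosen after seeing the data, gives the same means.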
